A study of Homo sapiens with 12 samples.

Results

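SW13 is a cell line from an adrenal cortical carcinoma that lacks the protein BRG1. The comparison reported here set 3 arrays of UV-treated SW13 cells carrying BRG1 (SW13+BRG1) against 3 arrays of UV-treated SW13 cells without it (SW13+vector), 6 of the 12 arrays of the series, which were chosen by their labels. Both groups had received 10 J/m2 of UV and were collected 6 h later. SW13+vector held the empty plasmid pREP7, and SW13+BRG1 held the same plasmid with isoform C of BRG1. Both were grown in DMEM with 10% serum. The other 6 arrays held the same 2 lines after mock treatment and served as the comparison without UV. Each line was 1 stable transfectant, so the 3 arrays of a group repeat 1 line, and an effect of BRG1 and any other difference between the lines cannot be told apart. The study calls the 3 samples of a group independent, and the p-values below measure the spread between such samples of 1 line.

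BRG1, encoded by SMARCA4, is the motor subunit of SWI/SNF chromatin remodeling complexes, which use ATP to slide or evict nucleosomes at promoters and enhancers. SMARCA2 encodes BRM, the alternative motor of the same complexes. These motors are lost in some carcinomas, and re-expression of BRG1 in deficient lines is a classic experimental system for genes of adhesion, cell shape and cell cycle control. UV-C light makes pyrimidine dimers in DNA, which stall RNA polymerase, activate stress kinases and p53, and are removed by nucleotide excision repair.

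Signals are MAS intensities on a linear scale from 1 probe set per gene, and differences between the lines are given as SW13+BRG1 minus SW13+vector on the log2 scale. A gene was called higher or lower where limma gave an adjusted p under 0.05 and a fold over 2. Array medians of the 6 UV-treated arrays ran from 21.1 to 25.3, and the 40th percentiles from 13.3 to 16.4. A fold against signals under these values depends on how background was handled, so a difference after UV is followed, where it is first given, by a floored value where a floor at the 40th percentile of each array moved it by over 1.5 times. Such floored values are also log2 differences. Signals of different genes come from different probes and cannot be ranked as transcript levels.

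The 6 UV-treated arrays separated by line. Over the tested probe sets the log2 signals of arrays from the same line correlated at 0.906 to 0.933 (6 pairs), and those of arrays from different lines at 0.810 to 0.827 (9 pairs). The arrays numbered 3 had the lowest medians in both lines, 21.3 and 21.1, and their counts with and without them are given below. The targeted gene did not give a clear check of the labels. The brightest of 9 probe sets of SMARCA4 read 423, 451 and 686 in SW13+vector and 171, 176 and 343 in SW13+BRG1, a difference of -1.22 (standard error 0.42, adjusted p 0.0399). This call was lost without any 1 of 5 UV-treated arrays. Without SW13+vector replicates 1, 2 and 3 the adjusted p was 0.058, 0.0694 and 0.137, and without SW13+BRG1 replicates 1 and 2 it was 0.132 and 0.129. A second probe set of SMARCA4 read 35.9, 16.9 and 50.4 in SW13+vector and 107.5, 136.0 and 200.7 in SW13+BRG1, the opposite direction (log2 difference 2.20, adjusted p 0.00284 over probe sets). It was the 1 call among the 7 SMARCA4 probe sets tested. Where these probes lie relative to the plasmid insert is not known here, so in the array data the direction of every difference rests on the labels. The study itself reports BRG1 protein in SW13+BRG1 by Western blot, unaffected by UV. It also reports that RT-PCR of genes such as CD44 and NTS, on RNA made for the arrays, matched its array data. Its RT-PCR panel also held SNAIL, which it reports as upregulated by BRG1. SNAI1 was not called higher here, and its values are given at the end. SMARCA2 was near background on all 6 arrays, with 18.00, 23.4 and 8.68 in SW13+vector and 28.1, 21.8 and 5.51 in SW13+BRG1.

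The adrenal origin was hardly visible in these cells. NR5A1, STAR and CYP11A1, which define steroid-producing cortex, had mean signals of 12.1, 5.80 and 22.4 in SW13+vector and 16.2, 8.40 and 9.09 in SW13+BRG1, near or under the array medians, and were below the filter. FDX1, SOAT1 and SCARB1, which also have roles outside the adrenal, gave mean signals of 235 to 1494. Markers of other cell types were low. The summed signal of the 13 blood cell markers with a probe set was 355 to 421 in SW13+vector and 192 to 269 in SW13+BRG1, and 2 of 7 tested were lower, PTPRC (118 against 6.77) and CD79A (48.6 against 10.96). CD3E, CD8A, CD14, SPI1 and TYROBP were not tested because of their low signals. Of the 2 endothelial markers tested, TEK was lower (55.9 against 11.9) and PECAM1 was not called (28.2 against 40.15). CDH5, VWF and KDR were below the filter. The part of these markers in the results was not tested. Among 14 reference genes 13 were not called, including GAPDH (12486 ± 973 against 13944 ± 1326) and ACTB (13026 ± 2621 against 14297 ± 3036), and TBP was lower (199 ± 27.7 against 84.1 ± 10.9, difference -1.24).

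After UV, 1363 of 13834 tested genes were higher in SW13+BRG1 (9.85%) and 946 were lower (6.84%). Over all tested probe sets, 2506 of 32622 were higher (7.68%) and 1949 were lower (5.97%). The 3 signals of one line all lay outside the range of the other for 2275 of the 2309 called genes. The call itself favors genes with such separate signals, so this count adds no support to the calls. A fold over 8 was reached by 357 of the higher and 135 of the lower genes. The median difference over all tested genes was -0.017, so the called genes sit around an unshifted center under the deposited scaling. The balance of directions depended on that scaling. When each array was scaled to 18 hybridization control probe sets instead, 1155 genes were higher and 1268 lower, the median difference became -0.163, and the share of higher genes among those called went from 59.0% to 47.7%. Without the 4 arrays numbered 3 of the 4 groups, 1434 genes were higher and 1031 lower.

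**Figure D1:**
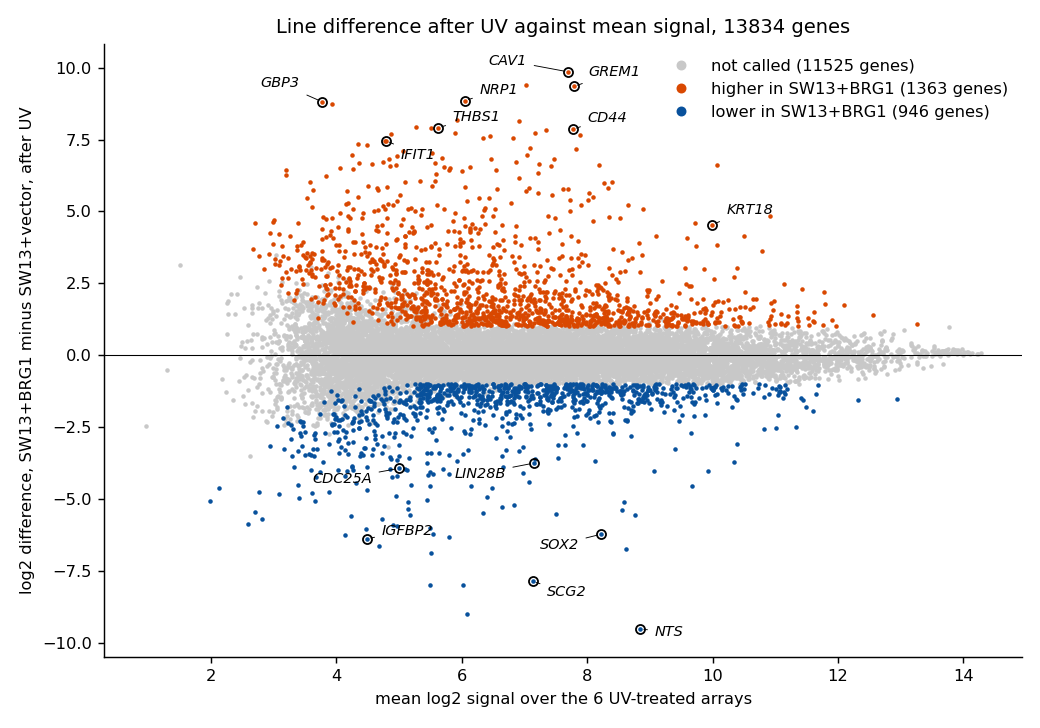
Log2 difference between SW13+BRG1 and SW13+vector after UV (vertical axis) against the mean log2 signal over the 6 UV-treated arrays (horizontal axis) for 13834 genes, each point 1 gene, colored by its call. The 1363 higher genes reach larger differences over a broad range of signals than most of the 946 lower ones, with CAV1 at 9.86 and NTS at -9.52 as the extremes among the genes labelled.

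Among the genes with the largest increase were genes of the cell surface, the matrix and the caveolae. CAV1, the main coat protein of caveolae, read 18.1, 4.97 and 3.504 on the SW13+vector arrays and 6422, 6198 and 6304 on the SW13+BRG1 arrays. The SW13+vector signals were at background and the SW13+BRG1 signals were within 4% of each other, and the difference was 9.86 (standard error 0.83, adjusted p 1.35e-06, 8.67 floored). GREM1, a secreted antagonist of bone morphogenetic proteins, read 24.2, 10.8 and 2.498 against 6467, 5643 and 4954, a difference of 9.35 (standard error 0.55, adjusted p 4.74e-08, 8.37 floored). NRP1, a receptor shared by semaphorin and VEGF signaling, read 8.27, 0.649 and 5.46 against 1464, 1431 and 1379 and differed by 8.85 (6.57 floored). All of these pairs of groups were far apart, with the SW13+vector signals at or under the array medians. THBS1, a matrix protein that regulates angiogenesis, read 0.589, 8.97 and 6.06 against 968, 939 and 493, a difference of 7.91 (standard error 0.80, adjusted p 7.22e-06, 5.67 floored), and 3 of its 5 probe sets were called. CD44, the hyaluronan receptor, read 7.605, 23.7 and 16.4 against 3378, 3329.6 and 3305, and 10 of its 11 probe sets were called. Its difference was 7.86 (standard error 0.65, adjusted p 1.03e-06). The other genes of the top 20 included PRSS23, a secreted serine protease (9.39 (7.62 floored)), MET, the receptor of hepatocyte growth factor (7.71 (7.07 floored)), LAMB1, a laminin chain (7.71 (5.83 floored)), DSP, the desmosomal plaque protein desmoplakin (7.90 (5.55 floored)), and KCNMA1, a calcium-activated potassium channel (7.62 (6.08 floored)).

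Among the genes with the largest decrease were genes of secreted peptides and proteins and of developmental regulators. NTS, the precursor of neurotensin, read 13752, 11999 and 11756 on the SW13+vector arrays and 1.52, 24.9 and 128 on the SW13+BRG1 arrays. It was among the strongest signals of the SW13+vector arrays, whereas the SW13+BRG1 arrays spread widely from background upward and stayed far below them, and the difference was -9.52 (standard error 1.26, adjusted p 6.96e-05, -8.40 floored). SCG2, a granin of neuroendocrine secretory vesicles, read 2195, 2221 and 2018 against 12.7, 2.56 and 23.6, a difference of -7.87 (standard error 0.57, adjusted p 2.96e-07, -6.89 floored). SOX2, a transcription factor of stem and neural progenitor cells, read 2753, 2922 and 2136 against 33.4, 39.99 and 30.5. Here the SW13+BRG1 signals stood above the array medians and the groups were still far apart, a difference of -6.23 (standard error 0.16, adjusted p 1.47e-10), and 3 of 4 probe sets of SOX2 were called. The transcript SOX2-OT, whose gene spans SOX2, was lower too (-8.01 (-5.59 floored)). PI15, a secreted protease inhibitor, differed by -9.02 (-6.70 floored), MMP10, a matrix metalloproteinase, by -6.75, FABP4, a fatty acid carrier, by -6.64 (-4.10 floored) with 1 of 2 probe sets called, and IGFBP2, a binder of insulin-like growth factors, by -6.38 (-3.78 floored). RGCC, a regulator of the cell cycle, read 462, 451 and 576 against 1.99, 5.84 and 6.48, and EYA4, a transcriptional coactivator, 191, 159 and 121 against 1.402, 2.57 and 2.26. Their differences were -6.87 (-5.04 floored) and -6.26 (-3.37 floored). Separate signals were a condition for choosing the genes with the largest differences, so their separation is no added result.

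**Figure D2:**
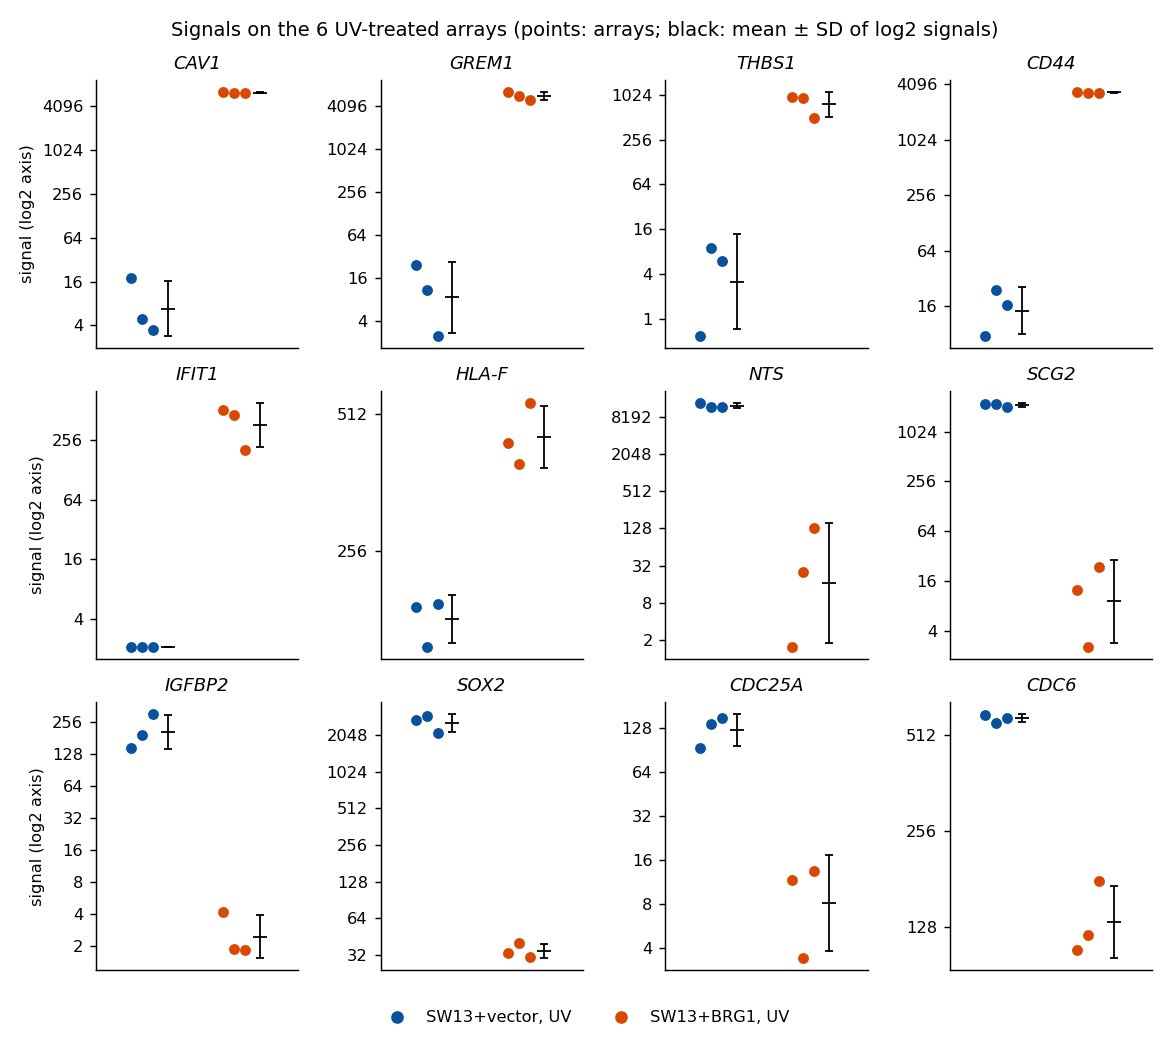
Signals of 12 genes on the 6 UV-treated arrays, each panel 1 gene with its own log2 axis, each point 1 array, and black marks for the mean and SD of the log2 signals. In all 12 panels the 3 signals of one line lie outside the range of the other, which was a condition for the genes chosen by the largest difference. The spread within a line is wide where signals are at background (NTS in SW13+BRG1 from 1.52 to 128).

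Genes of adhesion and of the actin cytoskeleton were called higher in 16 of 32 and 17 of 39 cases, beside 9.85% of all tested genes. Of 40 and 42 members 32 and 39 passed the filter, MYLK for one only through the SW13+BRG1 arrays. A member that passed in this way adds no separate support for an increase of its list. Of 32 tested genes of integrins and focal adhesions 16 were higher and 2 lower (median difference 1.07). Integrin alpha chains were among them, with ITGA3 at 4.50, ITGA2 at 3.75, ITGA5 at 2.41 and ITGA6 at 1.69. The members that were lower were ITGAV, the alpha-v integrin chain (2268 ± 335 against 802 ± 210.2, difference -1.53), and FERMT2, the integrin activator kindlin-2 (1445 ± 225 against 469 ± 65.5, difference -1.62). Focal adhesion kinase, PTK2, was not called at -0.33, and neither was vinculin, VCL, at -0.05. Of 39 genes of the actin cytoskeleton 17 were higher and none lower (median 0.61). MYLK, the kinase of myosin light chain, was at 6.71 (4.03 floored) and CALD1, caldesmon, at 4.09. The core genes ACTB (0.13), CFL1 (0.19) and PFN1 (-0.19) were not called.

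The intermediate filaments went both ways, with 6 of 14 higher (42.9%) and 3 lower (21.4%), beside 9.85% and 6.84% of all genes (median 0.028). VIM, the mesenchymal filament vimentin, read 297, 314 and 495 in SW13+vector and 9473, 9605 and 12372 in SW13+BRG1. KRT18, a keratin of simple epithelia, read 195, 243 and 198 against 4291, 4666 and 5949. Both filaments were thus strong on all 3 SW13+BRG1 arrays and far lower on the others, with differences of 4.86 (standard error 0.23, adjusted p 5.29e-09) and 4.54 (standard error 0.18, adjusted p 1.05e-09). KRT8, the partner of KRT18, was higher (1.30), as was the lamin gene LMNA (1.54), whereas LMNB1, a B-type lamin, was lower (-1.37). The neuronal filaments NEFH and INA were lower as well, at -3.87 (-2.44 floored) and -3.47.

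Matrix and mesenchymal genes were called higher in 11 of 26 and in 10 of 17 cases, with medians of 1.64 and 2.12, beside 9.85% of all genes. Of 40 and 23 members 26 and 17 passed the filter, some, such as CDH2, only through the SW13+BRG1 arrays. These counts are therefore no separate support for an increase of the lists. In the matrix list the higher genes included TGFBI, a matrix protein induced by TGF-beta (6.82 (4.34 floored)), the crosslinking enzyme LOXL2 (5.72), fibrillin-1, FBN1 (4.56), and several collagen chains, while POSTN, periostin, and FBN2, fibrillin-2, were lower (-2.87 (-2.003 floored) and -1.40). COL3A1 and COL5A2, at -0.21 and -0.34, were not called. In the mesenchymal list, which shares VIM and MMP2 with other lists, CDH2, N-cadherin, read 13.4, 6.86 and 18.02 against 1505, 1632 and 1261. The SW13+vector signals lay under the array medians and the SW13+BRG1 signals far above them, a difference of 6.95 (standard error 0.66, adjusted p 4.00e-06). AXL, a receptor tyrosine kinase, and NT5E, the ectonucleotidase CD73, were at 5.78 and 5.38, and the transcription factor ZEB1 at 2.02. Of 34 genes of epithelial junctions 18 were tested. Of these 3 were higher, DSP, CLDN1 (4.85 (4.25 floored)) and PKP2 (3.76 (3.09 floored)), and 1, DSC2 (-2.37 (-1.78 floored)), was lower. These shares, 16.7% and 5.6%, stood beside 9.85% and 6.84% of all genes, and the median was -0.017. The increase of DSP, CLDN1 and PKP2 was thus one of single genes, without a shift of the list.

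Matrix proteases showed opposite changes within 1 family. Of 26 tested proteases and inhibitors 10 were higher (38.5%) and 5 lower (19.2%), beside 9.85% and 6.84% of all genes. The stromelysins MMP10 and MMP3 and the collagenase MMP1 were lower, at -6.75, -4.11 and -1.47, and the gelatinase MMP2 was higher, at 3.75. The plasminogen activators PLAU and PLAT were higher (4.56 and 4.94 (2.77 floored)), and so were SERPINE2, a serpin that inhibits them (112 ± 29.96 against 10684 ± 883, difference 6.61), and TIMP2, an inhibitor of metalloproteinases (2.99).

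**Figure D3:**
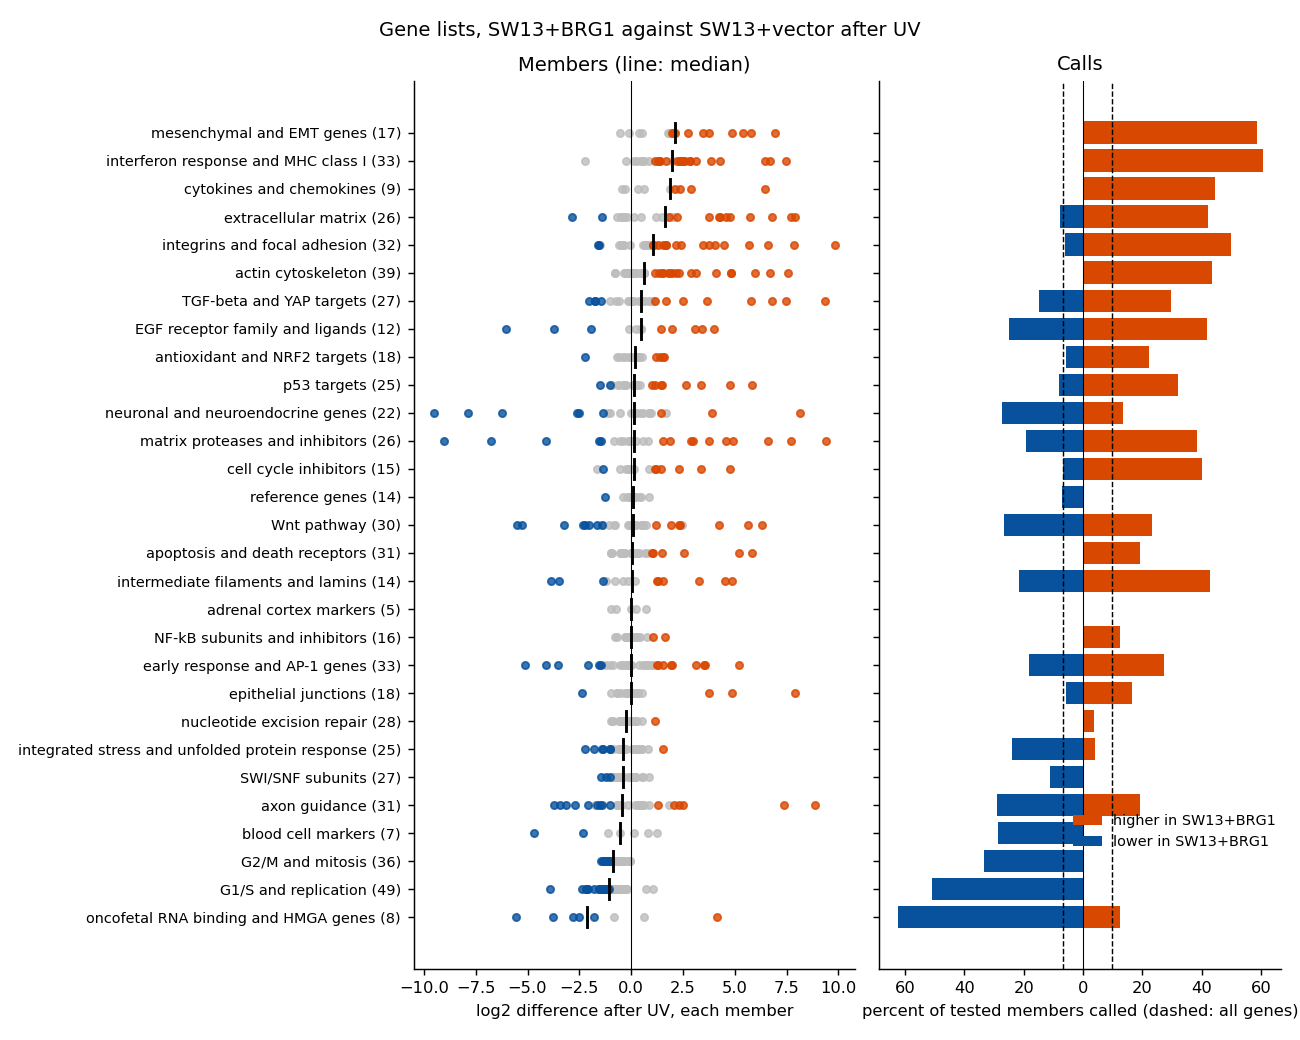
Gene lists with 5 or more tested members (number in brackets), with the log2 difference after UV of each member on the left and the percent of tested members called on the right, where dashed lines mark 9.85% and 6.84%, the shares over all genes. The interferon and mesenchymal lists have 60.6% and 58.8% of members higher and none lower, and the G1/S list has 51.0% lower and none higher.

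Among growth factor genes the receptors and their ligands did not move together. EGFR, the EGF receptor, read 40.1, 19.9 and 10.5 against 219, 206 and 224. It was higher on every SW13+BRG1 array, with a difference of 3.41 (standard error 0.44, adjusted p 6.09e-05) and 3 of 5 probe sets called. ERBB4, a receptor of neuregulins, was lower (-1.96), and ERBB2 was not called (0.22). Of the ligands, TGFA (4.01), EGF (3.08 (1.44 floored)) and HBEGF (1.97, or 0.93 and not called over the mean of its probe sets) were higher, while EREG, epiregulin, and NRG1, neuregulin 1, were lower. NRG1 read 4294, 4529 and 5330.3 against 376, 335 and 365, a difference of -3.71 with 4 of 6 probe sets called, and EREG differed by -6.03 (-3.59 floored) with 1 of 2 called. Of 28 cytokine genes 9 passed the filter, and 4 of these were higher and none lower. The 4 had SW13+vector signals near or under the array medians and passed the filter through the SW13+BRG1 arrays. The count is therefore no separate support for an increase of the list. The monocyte attractant CCL2 read 15.9, 6.73 and 9.33 against 829, 904 and 907 (difference 6.46 (5.87 floored)), the neutrophil attractant CXCL8 differed by 2.91, LIF by 2.12 and IL15 by 2.34 (1.24 floored).

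The interferon and antigen presentation genes formed the list with the highest share of increases, 20 of 33 tested (60.6%) against 9.85% of all genes, with none lower and a median of 1.99. Of the 44 members 33 passed the filter, some, such as IFIT1 and PSMB8, only through the SW13+BRG1 arrays. The share is therefore no separate support for an increase of the list. Interferons induce genes of this list through the complex ISGF3, which binds a response element built of repeated GAAA units. IFIT1, an antiviral RNA sensor, read 2.08, 2.07 and 2.099 in SW13+vector and 519.7, 467 and 204 in SW13+BRG1. PSMB8, a subunit of the immunoproteasome, read 4.06, 1.61 and 1.32 against 173, 171 and 202, and ISG20, an antiviral exonuclease, 4.35, 25.3 and 26.7 against 207, 222 and 194. The SW13+vector signals of IFIT1 and PSMB8 were at background and no groups overlapped. The differences were 7.46 (standard error 0.49, adjusted p 1.31e-07, 4.61 floored), 6.47 (standard error 0.56, adjusted p 1.77e-06, 3.59 floored) and 3.86 (standard error 0.59, adjusted p 0.000232, 3.22 floored). The DNA sensor IFI16 (4.28), the RNA sensor IFIH1 (3.14), IRF9, the DNA-binding subunit of ISGF3 (2.85), and ISG15, a ubiquitin-like modifier (1.70), were higher. So were the class I antigens HLA-B (353 ± 32.9 against 1895 ± 416), HLA-C (691 ± 139.6 against 3196 ± 643) and HLA-F (181 ± 21.3 against 461 ± 74.2), whose near-identical sequences may share probes. B2M, the light chain of class I molecules, differed by 0.88 (adjusted p 0.000472), under the fold threshold, and the peptide transporter genes TAP1 and TAP2 were at 0.55 and 0.63 and not called.

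The promoters of the 3 called members of the list with the largest difference among those holding the core of this response element are shown to let the repeated units be seen, with the core GAAANNGAAA (searched on both strands) in capitals. They are RefSeq windows of 300 bases on GRCh38.p14, from 250 bases before to 50 after the start of the gene, written 5′ to 3′ on the strand of the gene.
IFIT1 (chr10:89392373-89392672, plus strand): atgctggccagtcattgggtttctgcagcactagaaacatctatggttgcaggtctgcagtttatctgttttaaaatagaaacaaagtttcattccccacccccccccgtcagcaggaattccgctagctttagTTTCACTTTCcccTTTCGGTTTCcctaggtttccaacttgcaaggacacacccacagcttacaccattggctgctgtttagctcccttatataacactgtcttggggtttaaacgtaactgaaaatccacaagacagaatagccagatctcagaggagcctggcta
PSMB8 (chr6:32843998-32844297, minus strand): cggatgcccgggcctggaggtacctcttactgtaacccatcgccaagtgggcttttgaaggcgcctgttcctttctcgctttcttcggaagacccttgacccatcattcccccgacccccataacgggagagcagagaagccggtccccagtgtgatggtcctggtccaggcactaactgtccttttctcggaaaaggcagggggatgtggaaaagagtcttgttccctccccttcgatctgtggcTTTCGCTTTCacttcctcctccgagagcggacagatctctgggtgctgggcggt
ISG20 (chr15:88638766-88639065, plus strand): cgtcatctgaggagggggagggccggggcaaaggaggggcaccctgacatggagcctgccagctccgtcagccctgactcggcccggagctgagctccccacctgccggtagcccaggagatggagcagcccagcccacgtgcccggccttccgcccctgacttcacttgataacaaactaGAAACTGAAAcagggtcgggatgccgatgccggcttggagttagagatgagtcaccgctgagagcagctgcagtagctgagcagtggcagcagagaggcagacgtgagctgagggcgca
IFIT1 holds 2 cores a few bases apart, and PSMB8 and ISG20 hold 1 each. Of 27 tested members with a RefSeq window 17 held a core (63.0%), 11 of the 18 called and 6 of the 9 that were not called. The core stood in 3.57% of all 35116 windows. Among the tested genes with a window, 416 of 11118 held it (3.74%), which included 76 of 1093 genes called higher (6.95%) and 18 of 741 called lower (2.43%). These are counts of letters in a window and no test of binding was made.

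Genes of the cell cycle were lower in SW13+BRG1. Of 49 tested genes of G1/S and replication 25 were lower (51.0%, against 6.84% of all genes) and none higher, with a median of -1.05. CDC25A, a phosphatase that activates CDK2, read 94.1, 138 and 150.0 in SW13+vector and 11.7, 3.41 and 13.6 in SW13+BRG1. CDC6, which loads the replicative helicase, read 595, 561 and 582 against 108, 120.5 and 178, and E2F2, a transcription factor of S-phase genes, 151, 158 and 269 against 46.7, 50.98 and 35.98. No groups overlapped, and all 3 SW13+BRG1 signals of CDC25A were at background. The differences were -3.94 (standard error 0.59, adjusted p 0.000188, -3.05 floored), -2.13 (standard error 0.23, adjusted p 1.45e-05) and -2.08 (standard error 0.33, adjusted p 0.000295). The cyclin E genes CCNE1 and CCNE2 were at -1.79 and -2.19, the origin factors ORC1 and MCM10 at -2.35 and -2.16, and all 6 helicase subunits MCM2 to MCM7 were lower, from -1.05 for MCM5 to -1.57 for MCM7. PCNA (-0.28), the replication clamp, CDK4 (-0.31) and E2F1 (-0.19) were not called, nor was CCND1, the D-type cyclin, at 0.71. CCND3 was lower at -1.32. Of 36 genes of G2 and mitosis 12 were lower and none higher, and all 36 differences were below 0 (median -0.88). They included the checkpoint kinase gene BUB1B (-1.45), MAD2L1 (-1.35, with 2 of 3 probe sets called), CCNA2 (-1.34) and CDK1 (-1.21). Scaled to hybridization controls, where the median over all genes was -0.163, the medians of these lists were -1.19 and -1.02.

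The promoters of the 3 called G1/S members with the largest difference among those holding a short E2F site, TTTNGCGC (searched on both strands), are shown in the same way with the site in capitals, since E2F factors are the classic regulators of this group.
CDC25A (chr3:48188368-48188667, minus strand): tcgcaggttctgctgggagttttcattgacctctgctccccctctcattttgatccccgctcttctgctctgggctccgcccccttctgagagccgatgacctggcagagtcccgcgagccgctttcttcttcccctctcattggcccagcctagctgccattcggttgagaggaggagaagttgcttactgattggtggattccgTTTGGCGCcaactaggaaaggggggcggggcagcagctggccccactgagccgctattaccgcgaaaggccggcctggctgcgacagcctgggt
CDC6 (chr17:40287629-40287928, plus strand): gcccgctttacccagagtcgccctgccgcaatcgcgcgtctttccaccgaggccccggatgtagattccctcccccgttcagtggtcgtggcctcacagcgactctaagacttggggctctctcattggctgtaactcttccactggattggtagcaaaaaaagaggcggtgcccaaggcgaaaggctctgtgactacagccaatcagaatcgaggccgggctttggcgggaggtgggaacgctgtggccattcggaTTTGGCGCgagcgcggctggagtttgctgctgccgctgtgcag
E2F2 (chr1:23531184-23531483, minus strand): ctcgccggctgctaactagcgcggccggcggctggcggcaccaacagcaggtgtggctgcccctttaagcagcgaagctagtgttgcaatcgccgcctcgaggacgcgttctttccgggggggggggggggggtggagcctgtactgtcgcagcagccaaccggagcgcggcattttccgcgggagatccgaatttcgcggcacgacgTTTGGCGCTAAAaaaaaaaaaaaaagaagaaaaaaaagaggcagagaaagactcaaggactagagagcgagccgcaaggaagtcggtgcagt
The capitals of E2F2 cover a site on each strand that overlap. Of 41 tested G1/S genes with a window 18 held the site (43.9%), 12 of the 21 called and 6 of the 20 not called. It stood in 1.79% of all windows and in 379 of the 11118 tested genes with a window (3.41%), which included 33 of the 741 genes called lower (4.45%) and 23 of the 1093 called higher (2.10%).

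Inhibitors of the cell cycle were called higher in 6 of 15 cases and lower in 1, the pocket protein gene RBL1 (-1.38), with a median of 0.13. CDKN2B, the inhibitor p15, read 134, 122 and 132.6 against 1651, 1646 and 913, and CDKN2A, which encodes p16 and ARF, read 1124, 1153 and 1440.3 against 6215, 5993 and 6088. CDKN1A, the inhibitor p21, read 157, 122 and 85.9 against 280.2, 291 and 392. The lines did not overlap for any of these, and the differences were 3.39 (standard error 0.26, adjusted p 5.18e-07), 2.31 (standard error 0.11, adjusted p 6.27e-09) and 1.42 (standard error 0.34, adjusted p 0.00529). CDKN1B, the inhibitor p27, and RB1 were not called, at -0.25 and -0.14.

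Targets of p53, a main regulator after UV, were higher in 8 of 25 cases and lower in 2, beside 9.85% and 6.84% of all genes, with a median of 0.15. The counts became 6 and 3 under the hybridization control scaling, and 8 and 1 with a common median. PMAIP1, the BH3 protein NOXA, read 15.4, 20.7 and 17.6 in SW13+vector and 1267, 1136 and 718 in SW13+BRG1, a difference of 5.83 (standard error 0.52, adjusted p 2.36e-06). GADD45A, a stress-induced inhibitor of growth, read 61.1, 89.8 and 63.3 against 1891, 1931 and 1988, a difference of 4.78 (standard error 0.24, adjusted p 9.36e-09). Both were high on each of the SW13+BRG1 arrays and low on each of the others. PLK2 (3.38), FAS, a death receptor (1.51, with 2 of 4 probe sets called), and CCNG1 (1.14) were also higher. PPM1D, a phosphatase that dampens p53 signaling, and AEN, an apoptotic nuclease, were lower (-1.51 and -1.002), and BAX (0.15), MDM2 (-0.94) and DDB2 (0.30) were not called. The call of CCNG1 was lost under the hybridization control scaling, where its difference was 0.998. Of 31 genes of apoptosis 6 were higher (19.4%, beside 9.85% of all genes) and none lower, or 4 and 3 under that scaling. The initiator caspase gene CASP8 read 5.75, 13.02 and 1.56 against 214, 206 and 139, a difference of 5.23 (standard error 0.75, adjusted p 0.000139, 3.61 floored). TNFRSF1A, the receptor of TNF, differed by 2.56.

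Nucleotide excision repair genes, which act on UV lesions directly, showed 1 call among 28, CETN2, a partner of the damage sensor XPC. It read 769.7, 716 and 724 against 1721, 1714 and 1455, a difference of 1.14 (standard error 0.13, adjusted p 1.98e-05), which fell to 0.996 and lost its call under the scaling to hybridization controls. The sensors XPC (-0.32) and DDB2, the scaffold XPA (-0.44), the nuclease subunits ERCC1 (0.01), ERCC4 (-0.88) and ERCC5 (-0.26), and the coupling factor ERCC8 (-0.38) did not pass the test. The share of increases was 3.6%, beside 9.85% of all genes, and the median of the list was -0.23. Under that scaling none of the 28 was higher and 3 were lower.

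Among 27 tested SWI/SNF subunits none was higher and 3 were lower (median -0.41), beside 9.85% and 6.84% of all genes, and 2 were lower after quantile normalization, 1 with a common median and 4 when scaled to hybridization controls. The 3 were SS18L1 (192 ± 27.6 against 68.7 ± 3.83, difference -1.47), SMARCA4 by its brightest probe set, and DPF1 (85.7 ± 19.2 against 45.5 ± 22.7, difference -1.03, adjusted p 0.0421). DPF1 was not called at the level of probe sets and lost its call without any of 8 of the 12 arrays, which were both mock-treated lines' replicates 1 and 2, replicates 2 and 3 of UV-treated SW13+vector, and replicates 1 and 3 of UV-treated SW13+BRG1, with differences from -1.12 to -0.58 and adjusted p from 0.0531 to 0.173. The core subunits SMARCB1 (-0.41), SMARCC1 (0.17), SMARCC2 (0.58) and SMARCD1 (-0.16) were not called.

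The immediate early genes, which respond to growth factors and stress within minutes to hours, split into a higher and a lower set, 9 and 6 of 33 (median -0.003). These shares, 27.3% and 18.2%, stood beside 9.85% and 6.84% of all genes. ATF3, a stress-induced repressor of the ATF/CREB family, read 63.7, 88.7 and 61.7 in SW13+vector and 761, 791 and 864 in SW13+BRG1. JUN, the AP-1 subunit c-Jun, read 289, 280.1 and 311 against 1040.3, 818 and 762, and SGK1, a kinase induced by serum and glucocorticoids, 52.1, 74.7 and 74.4 against 2848, 2392 and 2184. Each of these was higher on all 3 SW13+BRG1 arrays, with differences of 3.51 (standard error 0.30, adjusted p 1.63e-06), 1.56 (standard error 0.16, adjusted p 9.35e-06) and 5.22 (standard error 0.38, adjusted p 2.94e-07). KLF4 (3.57 (2.40 floored)), KLF6 (1.91) and NR4A2 (3.12) were higher too. EGR1, a zinc finger factor induced by ERK, read 4285, 4236 and 4501 against 982, 1163 and 961, and DUSP6, the phosphatase of ERK, read 2228, 2349.7 and 2196 against 53.03, 59.00 and 87.2. Both were lower on every SW13+BRG1 array, at -2.07 (standard error 0.36, adjusted p 0.000599) and -5.12 (standard error 0.17, adjusted p 5.66e-10), as were EGR3 (-4.12 (-2.96 floored)), KLF2 (-3.53 (-2.24 floored)) and FOS (-1.56). MYC (511 against 508, difference -0.01) and JUNB (-0.44) were not called. Among 16 genes of NF-κB subunits and inhibitors 2 were higher (9.85% of all genes), the inhibitor TNFAIP3 (1.64) and TNIP1 (1.04), and the subunits RELA (0.32), NFKB1 (-0.01) and NFKB2 (0.23) were not called. The call of TNIP1 was lost without replicate 1 or 2 of SW13+vector (0.87 and 0.89, adjusted p 0.098 and 0.0946) or replicate 3 of SW13+BRG1 (0.87, adjusted p 0.0905), and also after quantile normalization (0.997), with a common median (adjusted p 0.0504), when scaled to hybridization controls (0.90) and over the mean of its probe sets (0.67).

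Developmental signaling genes changed in both directions. Of 30 Wnt pathway genes 7 were higher (23.3%) and 8 lower (26.7%), beside 9.85% and 6.84% of all genes. The secreted inhibitors exchanged places, with DKK1 (1244 ± 272 against 27.2 ± 5.45) and SFRP4 (626 ± 90.3 against 16.4 ± 5.06) lower and DKK3 (16.6 ± 0.444 against 1338 ± 48.6) and SFRP1 (21.9 ± 7.67 against 1083 ± 319) higher. Their differences were -5.51, -5.28, 6.33 and 5.65. AXIN2, a feedback target of the pathway, was lower (-3.26 (-2.29 floored)), and CTNNB1, beta-catenin, was not called (0.26). Of 27 TGF-beta and YAP genes 8 were higher, among them the activin subunit INHBA (7.46 (4.60 floored)), the mediator SMAD3 (1.68, 2 of 4 probe sets called) and the YAP partner WWTR1 (2.51), and 4 were lower, SMAD6 (-2.01), LATS2 (-1.76), TGFB2 (-1.74) and CCN2 (-1.47). The shares of this list called higher and lower were 29.6% and 14.8%, and YAP1 and TGFB1 were not called (-0.12 and -0.02).

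Axon guidance and neuronal genes were more often lower than higher, 9 against 6 of 31 (median -0.46) and 6 against 3 of 22, where the median was above 0 (0.15). The lower shares were 29.0% and 27.3%, beside 6.84% of all genes, and the higher shares 19.4% and 13.6%, beside 9.85%. The Slit, semaphorin and ephrin families had members in both directions. ROBO2 (-3.73 (-1.66 floored)), EPHA3 (-3.42), SEMA3A (-3.14) and SLIT2 (-1.65) were lower, while NRP1, SEMA4B (2.31), SLIT3 (2.48 (1.54 floored)), EFNA1 (2.07 (1.49 floored)) and EFNA4 (1.28) were higher, as was NTN4, a netrin (7.36 (4.12 floored)). MAP2, a dendritic microtubule protein, was lower (-2.52) beside NTS and SCG2, and DCLK1, a microtubule-associated kinase, was higher, by 8.15 (6.99 floored) with 3 of 4 probe sets called. Of 8 tested oncofetal genes, which are active in the embryo and again in tumors, 5 were lower (62.5%) and 1 was higher (12.5%). Over all genes these shares were 6.84% and 9.85%. LIN28B, which blocks the maturation of let-7 miRNAs, read 559, 531 and 477 against 46.2, 32.9 and 37.7, and SALL4, a stem cell transcription factor, 234, 287 and 228 against 7.61, 3.97 and 4.86. HMGA2, a DNA-bending protein repressed by let-7, read 6434, 6455 and 5572 against 1130.0, 1068 and 1050.4. The lines were separate for all of these, with differences of -3.75 (standard error 0.16, adjusted p 2.05e-09), -5.56 (standard error 0.32, adjusted p 3.94e-08, -4.05 floored) and -2.50 (standard error 0.10, adjusted p 1.05e-09). The imprinted gene PEG10 went the other way (356 ± 103 against 6137 ± 972, difference 4.13).

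In the stress lists, 6 of 25 genes of the integrated stress and unfolded protein responses were lower and 1 was higher (median -0.39). These shares, 24.0% and 4.0%, stood beside 6.84% and 9.85% of all genes. The lower genes included ATF4, the central factor of the integrated stress response (2006 ± 125 against 1018 ± 292, difference -1.01), and enzymes and transporters of amino acid supply, ASNS (-1.39), PSAT1 (-1.34) and SLC7A11 (-2.25, 1 of 3 probe sets called), while HSPA5, the chaperone of the endoplasmic reticulum, was not called (0.05). Of 18 antioxidant genes 4 were higher, SQSTM1 (1.58), NQO1 (1.52), FTL (1.40) and HMOX1 (1.21), and 1, SLC7A11, was lower. The higher share was 22.2%, and the lower share, 5.6%, was below that of all genes. SQSTM1 was called on 2 of 5 probe sets, and its difference over the mean of them, 0.84, did not pass the fold threshold.

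Most differences after UV were also present between the mock-treated lines. Without UV 1297 genes were higher (9.38%) and 726 lower (5.25%) in SW13+BRG1. Of the genes higher after UV 1020 were also called higher without UV, 74.8% of those after UV and 78.6% of those without. Of the lower genes 540 were shared, 57.1% and 74.4%. The 2 comparisons share no array, but they use the same pair of lines and 1 variance estimate. Another 343 genes passed as higher after UV alone, of which 334 had a difference above 0 without UV and 130 an adjusted p under 0.05 there, and 404 passed as lower after UV alone, of which 375 were below 0 without UV and 139 had an adjusted p under 0.05. For some of the genes named above the differences after and without UV were 9.86 and 10.45 for CAV1, 4.86 and 4.78 for VIM, 7.46 and 7.50 for IFIT1, -9.52 and -9.35 for NTS, and -2.13 and -1.65 for CDC6. Among stress genes, of which CDKN1A was not called without UV (adjusted p 0.0555), they were 4.78 and 3.61 for GADD45A, 5.83 and 4.55 for PMAIP1, and 1.42 and 0.93 for CDKN1A. Others were called after UV only, among them CETN2 (without UV 0.97), TBP (-0.76), SS18L1 (-0.68) and CD79A (-0.20). Of the interferon list 20 genes were higher after UV and 22 without, and of the G1/S list 25 and 22 were lower.

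**Figure D4:**
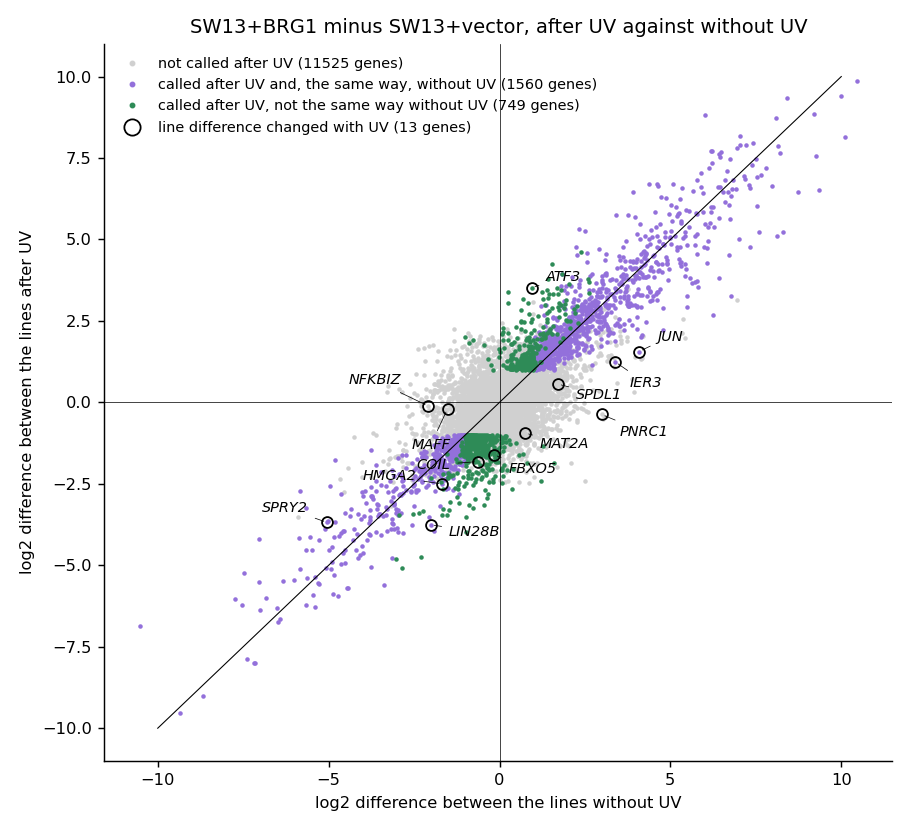
Log2 difference between the lines after UV (vertical axis) against that without UV (horizontal axis) for 13834 genes, each point 1 gene, with the diagonal of equal differences and circles on the 13 genes whose line difference changed with UV. Most of the 1560 genes called the same way in both comparisons lie near the diagonal, ATF3 and LIN28B lie away from it with the larger difference after UV, and PNRC1 and JUN with the larger one without UV.

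Whether a line difference changed with UV was tested by the interaction, which 13 genes passed (0.094% of 13834, and 756 at an unadjusted p under 0.05). They include 1 of the 343 and 2 of the 404 genes called after UV alone, so for the others a change with UV was not shown in this fit. With the replicate number as a block 81 genes passed, the 13 among them, with 5 of the 343 and 19 of the 404. In LIN28B, ATF3, FBXO5, COIL and HMGA2 the lines were further apart after UV, in the same direction as without it. The means of LIN28B went from 1372 ± 122 in mock-treated to 522 ± 41.6 in UV-treated SW13+vector and from 341 ± 37.7 to 38.96 ± 6.73 in SW13+BRG1, so that the line difference went from -2.01 to -3.75. ATF3 read 53.1, 28.5 and 30.4 in mock-treated SW13+vector, 60.2, 51.2 and 105 in mock-treated SW13+BRG1, 63.7, 88.7 and 61.7 in UV-treated SW13+vector and 761, 791 and 864 in UV-treated SW13+BRG1. The high group was UV-treated SW13+BRG1, and the interaction was 2.58 (standard error 0.43, adjusted p 0.0476). FBXO5, the inhibitor EMI1 of the anaphase promoting complex, had overlapping lines without UV (-0.17) and signals of 378, 383 and 387 against 126, 114 and 138 after it (-1.61).

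In other genes a line difference without UV was smaller after it. PNRC1, a nuclear receptor coactivator, read 68.5, 64.6 and 64.4 in mock-treated SW13+vector and 538, 602 and 437 in mock-treated SW13+BRG1, but 88.1, 130.4 and 77.4 and 93.5, 55.7 and 79.3 after UV. The lines were apart without UV and overlapped after it, with an interaction of -3.35 (standard error 0.35, adjusted p 0.00184). JUN had means of 164 ± 3.999 and 2816 ± 588 without UV and of 293 ± 16.1 and 873 ± 147 after it, which brought the difference from 4.08 to 1.56 (interaction -2.52, adjusted p 0.000845). The stress gene IER3 followed the same course, from 3.38 to 1.24. NFKBIZ, a nuclear IκB protein, read 415, 410.3 and 375 against 98.9, 100.4 and 84.3 without UV and 306, 287 and 253 against 284, 284 and 218 after it. Its difference of -2.08 was gone after UV (-0.11, interaction 1.97, adjusted p 0.00278). These 4 genes kept their interaction when each of the 12 arrays was left out in turn. LIN28B lost it in 2 of the 12 cases, FBXO5 in 8 and ATF3 in 10, given with the remaining genes below. Over the mean of a gene's probe sets JUN, NFKBIZ and ATF3 did not pass. Opposite calls after and without UV were made for 2 genes, picked out here after their values were seen. The hormone gene ADM2 had differences of -1.86 and 1.58, and the Rab GTPase gene RAB4B of -1.35 and 1.26. Their adjusted interaction p were 0.211 and 0.212, so the change was not shown for either in the fit without the block.

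**Figure D5:**
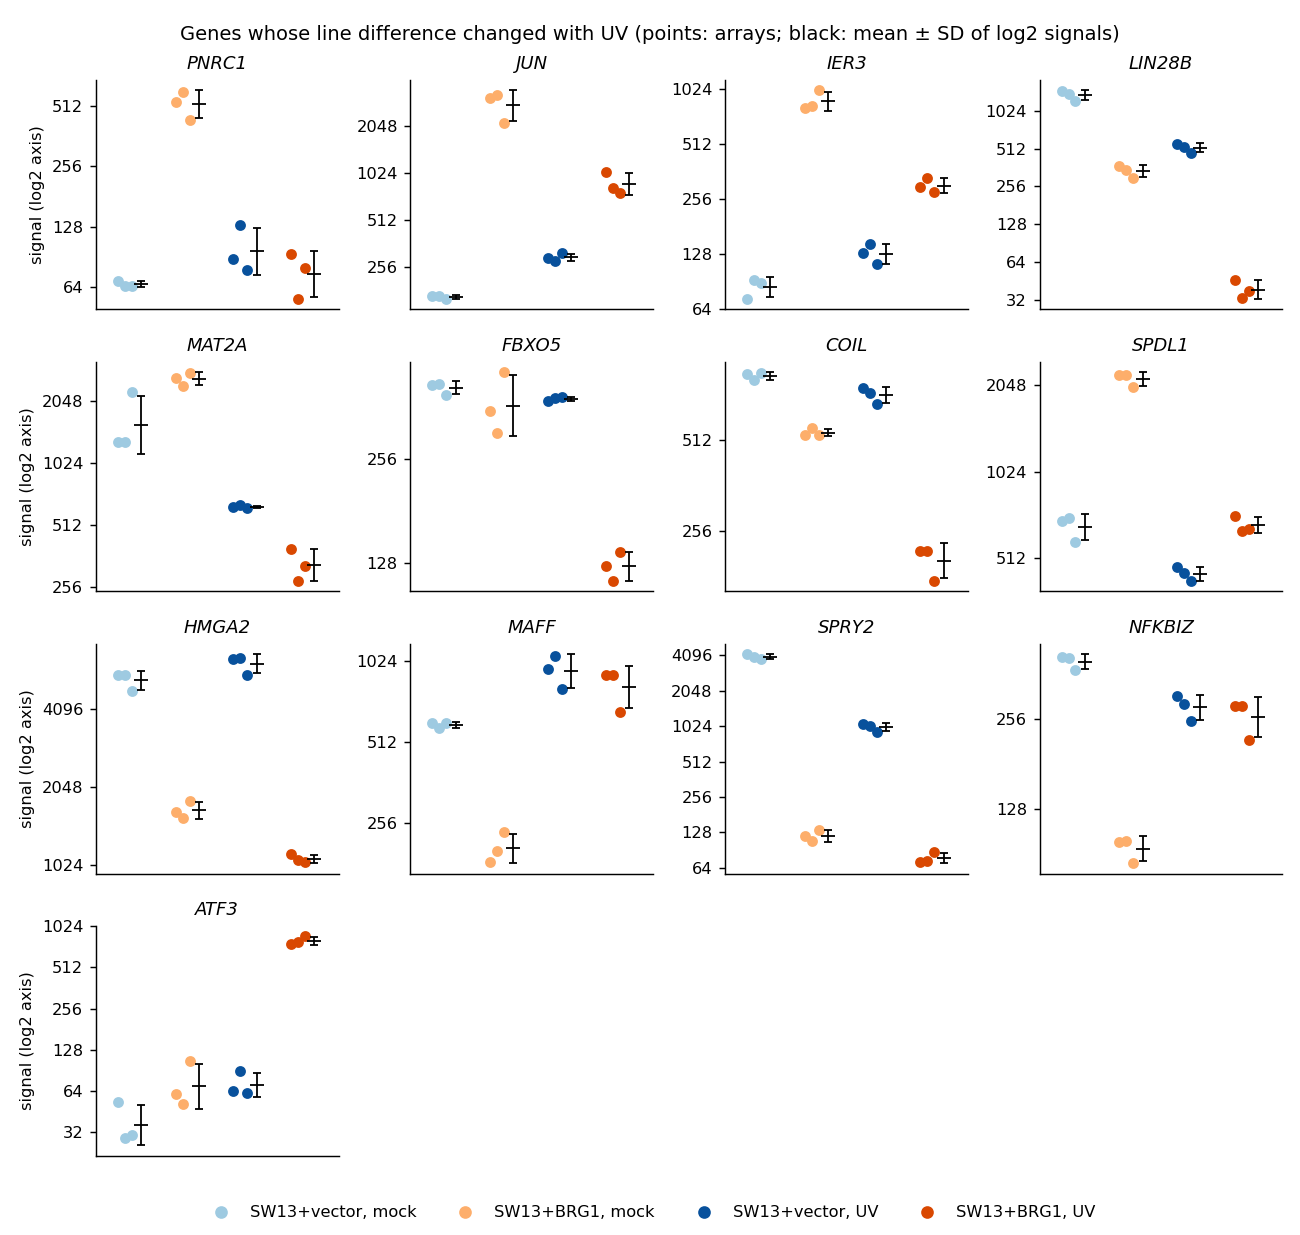
Signals of the 13 genes whose line difference changed with UV, each panel 1 gene with its own log2 axis, each point 1 of 3 arrays per group, and black marks for the mean and SD of the log2 signals. UV-treated SW13+BRG1 stands apart from the other 3 groups in ATF3, FBXO5 and COIL, while PNRC1 and JUN are highest in mock-treated SW13+BRG1.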

How the data were processed

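The 12 samples were hybridized to Affymetrix U133 Plus 2.0 arrays. Per the study's methods the authors used MAS defaults to summarize probe sets and set the mean target of every array to 125, and the deposited values are these intensity values on a linear scale for 54675 probe sets. Their mean without the top and bottom 2% was 125.0 on every array. The sources used here do not name the MAS version, and the number of arrays limits the precision.

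Here signals were taken to log2 without further normalization. Control probe sets (62) were left out, and probe sets at or above the array median on at least 3 of 12 arrays were tested (32622). A probe set could pass through the arrays of 1 line alone, and those low in both lines were left out. Shares of a list are therefore shares of its tested members. Of all probe sets 41097 were listed with 1 gene, 1801 with several and 11777 with no gene in the annotation used here, and 41043 matched RefSeq by gene identifier. The brightest single-gene probe set stood for its gene (13834 genes). limma 3.58.1 in R 4.3.3 fitted 4 group means on all 12 arrays with a variance prior following the mean signal. Benjamini-Hochberg adjusted p-values run over all genes, or over all probe sets where so stated. Genes were called at an adjusted p under 0.05 with a fold over 2, and interactions at the adjusted p without a fold threshold. Group values are means ± SD of 3 arrays. The fit was tested on simulated data.

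The 30 gene lists (651 of 838 members tested) and all members were chosen with earlier results of these data known, and no list was tested as a set. Genes were named by rule if they were among the 20 with the largest difference in each direction (called, separated, and with the brighter group at the 75th percentile of signals or above), were one of the 4 most different called members of a list, or were named by the study, past the interaction test or controls. Other members named were chosen after their values were seen. Promoters came from RefSeq windows, and a gene was counted if any of its windows held the motif. Alternatives were other scalings, offsets, filters, variance models and tests, a mean over probe sets, the replicate number as a block, leaving out each array, and, added after the data were seen, scaling to hybridization controls and dropping all arrays numbered 3.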

Additional observations from a re-analysis of the deposited data

Results flagged for a closer look

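Each of the 13 genes below had a line difference after UV that differed from the one without UV by the interaction test of limma (adjusted p over 13834 genes, n = 3 arrays per group). No cause was tested. The interaction is the log2 difference between the lines after UV minus that without UV.

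In PNRC1 it was -3.35 (adjusted p 0.00184), in JUN -2.52 (adjusted p 0.000845), in IER3 -2.14 (adjusted p 0.00233) and in NFKBIZ 1.97 (adjusted p 0.00278). These 4 passed with each of the 12 arrays left out in turn. Over the mean of a gene's probe sets, however, JUN and NFKBIZ did not pass (adjusted p 0.0686 and 0.256). Of the genes given below, ATF3, COIL, MAFF, HMGA2 and MAT2A did not pass over that mean either. For LIN28B the interaction was -1.74 (adjusted p 0.0084), and it was lost without replicate 1 or 2 of UV-treated SW13+vector (-1.69 and -1.73, adjusted p 0.0508 and 0.0524).

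SPDL1, a gene of chromosome segregation, had an interaction of -1.14 (adjusted p 0.014). Its line difference was 1.70 without UV and 0.56 after it, and the interaction was lost without replicates 1 or 2 of UV-treated SW13+vector or of mock-treated SW13+BRG1 or replicate 2 of UV-treated SW13+BRG1 (-1.14 to -1.10, adjusted p 0.0683 to 0.081). SPRY2, an inhibitor of receptor tyrosine kinase signaling, stood at 1.36 (adjusted p 0.014), with differences of -5.04 and -3.69, and COIL, the marker protein of Cajal bodies, at -1.20 (adjusted p 0.0183), with -0.62 and -1.82. Both lost it without replicates 1 or 2 of mock-treated SW13+vector, UV-treated SW13+vector or mock-treated SW13+BRG1, where SPRY2 ran from 1.28 to 1.41 and COIL from -1.21 to -1.16, with adjusted p up to 0.0792 and 0.101.

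The remaining genes passed narrowly. FBXO5, at -1.44 (adjusted p 0.0336), passed on leaving out replicate 3 of mock-treated SW13+vector, replicate 2 or 3 of mock-treated SW13+BRG1 or replicate 3 of UV-treated SW13+BRG1, and was lost without any of the other 8 arrays. ATF3, at 2.58 (adjusted p 0.0476), passed on leaving out replicate 3 of either mock-treated group and was lost without any of the other 10 arrays (2.29 to 2.88 over all 12, adjusted p up to 0.189). MAFF, a small Maf factor, was at 1.32 (adjusted p 0.0476), with differences of -1.52 without UV and -0.20 after it, and passed without replicate 3 of mock-treated or of UV-treated SW13+BRG1 only among the 12 omissions. MAT2A, which makes S-adenosylmethionine, was at -1.69 (adjusted p 0.0476), with 0.75 and -0.94 from the brighter of 2 probe sets, and passed without replicate 3 of mock-treated SW13+vector or replicate 1 of UV-treated SW13+BRG1 only. HMGA2, at -0.83 (adjusted p 0.0476), passed without replicate 3 of UV-treated SW13+vector only. Over these omissions FBXO5 ran from -1.57 to -1.28, MAFF from 1.21 to 1.47, MAT2A from -1.96 to -1.56 and HMGA2 from -0.90 to -0.77, so no direction changed. The other probe set of MAT2A was called higher in SW13+BRG1 after UV, and over the mean of both the line difference after UV was 0.21 and the interaction -0.85, not passed (adjusted p 0.152).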

How the results depend on the processing

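No named gene changed direction past the threshold under any alternative run, and the counts of 1363 higher and 946 lower genes stayed within 1.5 times under every setting but the ones given next. At an adjusted p alone, without a fold threshold, 2261 genes and 3795 probe sets were higher, 2142 and 3841 lower, and 3160 genes were shared with the comparison without UV (1560 with the threshold). The methods' t-test called 1210 genes higher and 815 lower unadjusted, and after Benjamini-Hochberg adjustment 595 and 353, or 696 and 450 probe sets. Among the named genes, BUB1B, KLF4, EGR3, ROBO2, SLC7A11, CD79A and TEK were some that lost their call by this t-test even unadjusted. Others lost it after adjustment, among them NTS (adjusted p 0.133), EGFR (0.109), CASP8 (0.105), THBS1 (0.0912), NRP1 (0.0863) and SCG2 (0.0818). Leaving out 1 array gave 1236 to 1420 genes higher, 841 to 976 lower, 2181 to 2647 probe sets higher, 1612 to 2033 lower and 1447 to 1564 shared genes. The 13 genes of the interaction depended most on the processing. They became 21 with a floor at the 40th percentile, 4 without the trend in the variance prior, 6 over the mean of a gene's probe sets, 4 to 18 without 1 array, and 151 without the 4 arrays numbered 3, chosen after seeing the data. The low counts arose without replicate 1 or 2 of UV-treated SW13+vector (4 each), of mock-treated SW13+BRG1 (5 and 6) or of mock-treated SW13+vector (6 and 8), or replicate 2 of UV-treated SW13+BRG1 (7). The cause was not tested.

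With the replicate number as a block, 1446 genes were higher, 1014 lower and 81 passed the interaction. The titles give it as an experiment number and do not say whether the groups of one number were handled together. Deviations of same-numbered UV-treated arrays from their group means correlated at 0.0872, 0.0646 and 0.201. Over all 4 groups the same-numbered pairs correlated at 0.0152 to 0.293, over 0.1 in 11 of 18, and arrays numbered 3 at 0.179 to 0.293 with each other and at -0.223 to -0.0562 with the rest. The arrays numbered 3 thus shared a deviation across all 4 groups, which the main fit did not model. For numbers 1 and 2 this was not clear, since arrays of number 1 correlated with those of number 2 at 0.0396 to 0.137. Replicate 2 of UV-treated SW13+vector correlated at 0.0802 with replicate 1 of UV-treated SW13+BRG1 and at 0.0646 with replicate 2. Every other UV-treated array correlated best with the UV-treated array of its own number in the other line. The fit without the block was kept as the main one, and the interaction count depends on this choice. A gene that did not pass there was not shown to lack a change with UV. Signals at or below the 40th percentile limit what can be said of the size of a fold.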

Other observations

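Gene families outside the lists, picked out by their symbols after their values were seen and without a test of the family, showed further patterns. All 7 tested metallothionein genes, which code for small metal-binding proteins, were higher in SW13+BRG1 after UV, by 2.23 to 4.16 (median 3.62), and all 7 were higher without UV as well. MT2A read 478, 525 and 506 in SW13+vector and 5471, 5684 and 7600.1 in SW13+BRG1, and MT1X 252, 303 and 299 against 3368, 3802 and 5289.9. Neither gene's groups overlapped. Metallothionein sequences are near-identical, so their probe sets may share transcripts and are not separate observations. Of 12 tested genes of histone H2B, 7 were higher (58.3%, beside 9.85% of all genes) and none lower (median 1.20), although replication genes were lower in the same line. H2BC5 read 1072 ± 263 in SW13+vector against 3654 ± 186 in SW13+BRG1 and H2BC21 159 ± 19.4 against 658 ± 41.5. The H2B probe sets may also share transcripts. The guanylate-binding proteins GBP1, GBP2 and GBP3, which are induced by interferon, differed by 5.08 (4.34 floored), 4.28 and 8.81 (4.27 floored), and GBP4 was not called.

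Of 417 tested zinc finger genes with a ZNF symbol, 39 were lower after UV (9.35%, beside 6.84% of all genes) and 7 higher (1.68%, beside 9.85%), with a median of -0.30 and 273 differences below 0. Without UV 14 were lower (3.36%, beside 5.25%) and 14 higher, with a median of 0.057 and 188 below 0. None passed the interaction by itself, and no test of the group was made. The median after UV was -0.31 after quantile normalization, -0.29 with a common median and -0.45 when scaled to hybridization controls. The 57 tested ribosomal protein genes had no call in either direction, with differences from -0.74 to 0.70.

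Several genes that the study names showed a line difference of similar size in both conditions. IGFBP3, a binder of insulin-like growth factors, read 188, 198 and 137 in SW13+vector and 4006, 4168 and 4203 in SW13+BRG1 after UV, a difference of 4.59 against 4.28 without UV. S100A2, a calcium-binding protein, differed by 4.50 and 4.25, MVP, the major vault protein, by 4.14 and 3.99, and BNIP3L, a mitophagy receptor, by 3.04 and 2.79. By their brightest probe sets PML (0.48), BTG3 (-0.29), SUN1 (0.03) and TOX4 (0.35) were not called after UV, but 3 of 9 probe sets of PML and 1 of 5 of TOX4 were called higher, and PML was called over the mean of its probe sets (1.55, adjusted p 0.00337). SNAI1, the repressor Snail, was lower in SW13+BRG1 without UV (-2.70, but -0.94 and not called with the floor at the 40th percentile, adjusted p 0.121) and not called after it (-0.12, interaction 2.58, adjusted p 0.857). The study reports SNAIL as upregulated by BRG1 in its arrays and RT-PCR, which these values did not show.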
